A study of Mus musculus with 2 samples.

Results

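Among natural killer (NK) cells sorted from mouse tumours, a small set carried transcripts of Cma1 and S1pr5. They were chosen by their UMI counts, as the barcodes with at least 1 UMI (a tagged transcript molecule) of the NK receptor gene Ncr1, under 0.15% of UMIs from the stroma genes Col1a1, Col1a2, Sparc, Cald1, Pcolce and Lrp1, fewer than 2 UMIs of the cell cycle genes Mki67, Rrm2, Ccnb2 and Top2a, and at least 2 UMIs of Cma1 and S1pr5 together. Of 20821 barcodes, 189 met the rule, and they are called the Cma1/S1pr5 cells below ("members" in the plots). They are set against the 10253 barcodes that passed the same filters with 0 UMIs of both genes, called the comparison cells ("sum-0 barcodes" in the plots). The rule read the counts of these same cells, so differences between the 2 sets are descriptions and carry no test.

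The cells came from CT26_b2m-/- tumours, a mouse colon carcinoma line that by its name lacks B2m, the light chain of MHC class I that NK cells sense. Tumours of both groups share this deletion. By the sample titles, 1 group received IL-15SA+IL-21Fc and the other IL-15SA alone, while the series title speaks of IL-21 and of its combination with IL-15. The sample titles were followed. Cells positive for CD45.2 and NKp46 and negative for CD3 were sorted, pooled within each treatment and loaded on a microwell chip, so that each group is 1 library with no replicate. The sources used here do not state mouse strain, age, dose or timing.

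NK cells leave the bone marrow immature and, as they mature, reshape their surface receptors, homing molecules and effector genes. S1pr5 encodes a receptor for sphingosine-1-phosphate that mature NK cells use to leave bone marrow and lymph nodes. Cma1 encodes a chymase best known from mast cell granules, also called mast cell protease 5. Ccl5 encodes a chemokine, given with the other pair as a marker of these cells, that attracts T cells and other leukocytes. By the GENCODE M21 annotation of the mm10 build, the protein-coding gene Cma1 (ENSMUSG00000022225) spans positions 55941451 to 55944675 of chromosome 14. The protein-coding genes S1pr5 (ENSMUSG00000045087) and Ccl5 (ENSMUSG00000035042) span 21242912 to 21248443 of chromosome 9 and 83525778 to 83530518 of chromosome 11. Counts are per gene and do not tell exons apart.

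The libraries held 12435 barcodes and 35336180 UMIs with IL-15SA+IL-21Fc and 8386 barcodes and 30893388 UMIs with IL-15SA. All filters but the last were passed by 6730 and 4180 barcodes, with a median of 2162 and 2671 UMIs each. A total of 60 barcode sequences occurred in both libraries, and 1 of the 189 Cma1/S1pr5 cells, in the IL-15SA library, bore such a barcode. Some genes had almost no UMIs in the files, among them Il2rg, on which NK cells depend, with 0, so a value of 0 may stem from the assignment of reads to genes.

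The Cma1/S1pr5 cells were rare in both libraries, with a larger share under IL-15SA+IL-21Fc. There were 144 of them in the IL-15SA+IL-21Fc library, 2.14% of the barcodes that passed the filters (exact binomial 95% interval 1.81 to 2.51), and 45 in the IL-15SA library, 1.08% (0.786 to 1.44). These intervals, and all others given here, cover counting error only and not the difference between animals. The 2 intervals did not overlap, but with 1 library per group no test of the treatment was possible. With every barcode thinned to 1000 UMIs, at least 2 UMIs of both genes remained in 0.832% (0.629 to 1.08) and 0.359% (0.201 to 0.591). At least 1 UMI remained in 3.83% (3.39 to 4.32) and 2.61% (2.15 to 3.14). The order was the same on all 3 scales, and the plot of shares sets them side by side.

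**Figure D1:**
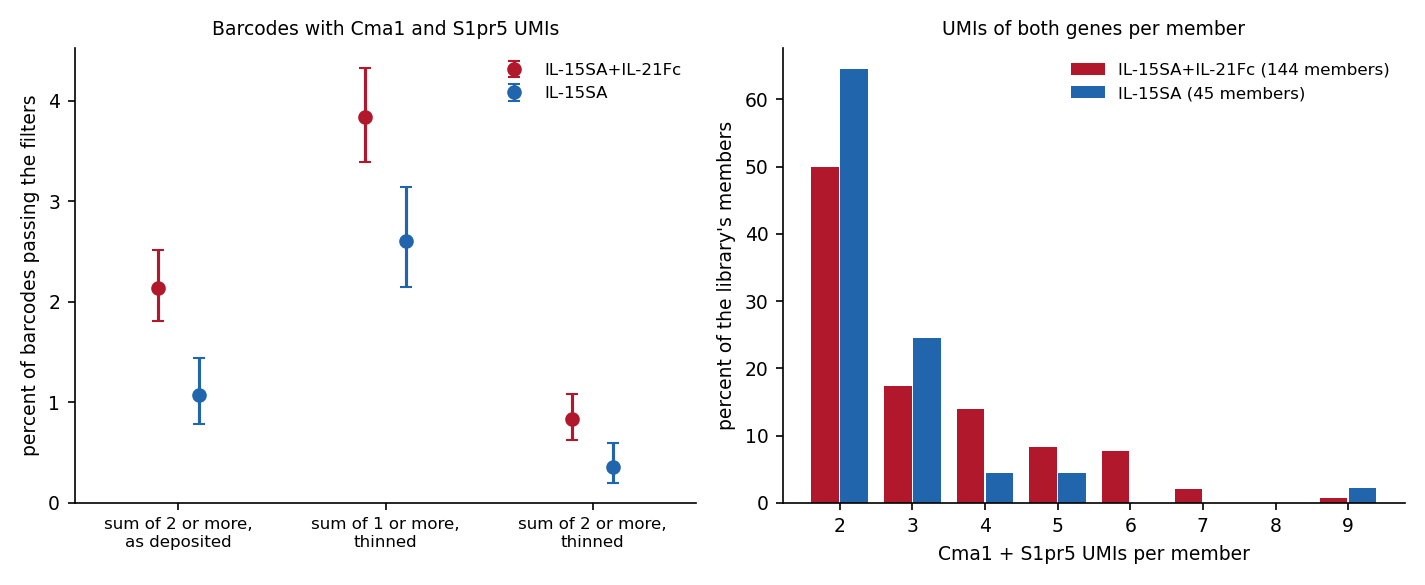
Left, percent of the barcodes passing the filters (y axis) with the stated sum of Cma1 and S1pr5 UMIs (x axis), as deposited and thinned to 1000 UMIs, for the IL-15SA+IL-21Fc library (red) and the IL-15SA library (blue), with exact binomial 95% intervals. Right, percent of each library's members (y axis) at each number of Cma1 and S1pr5 UMIs (x axis), where 72 of 144 members and 29 of 45 sat at the lowest allowed sum.

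Read gene by gene over all filtered barcodes, the share with a UMI differed between the libraries for Cma1. This reading does not split the share of Cma1/S1pr5 cells, of which 55 of 144 and 10 of 45 held an S1pr5 UMI. After thinning, a Cma1 UMI was found in 2.85% of filtered barcodes with IL-15SA+IL-21Fc and 1.60% with IL-15SA. An S1pr5 UMI was found in 1.20% (0.957 to 1.49) and 1.10% (0.807 to 1.47), and a difference in the S1pr5 share was not detectable at this depth. As a measure of free RNA, barcodes over the stroma limit and without Ncr1 were read, at median depths of 1902 and 1822 UMIs. After thinning, 0.862% and 0% of them had a Cma1 UMI. Without thinning, the filtered barcodes with a Cma1 UMI made up 4.90% (4.40 to 5.45) with IL-15SA+IL-21Fc, against 2.07% (1.07 to 3.59) of the background barcodes. With IL-15SA the shares were 3.40% (2.87 to 3.99) and 0.758% (0.0192 to 4.15). The filtered barcodes were thus above the background with IL-15SA+IL-21Fc, while with IL-15SA the intervals overlapped. A sum of at least 2 was found in 0 of 580 and 0 of 132 background barcodes, which, counted as 3 barcodes of the total, allows shares of up to 0.517% and 2.27%.

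Most Cma1/S1pr5 cells met the rule through Cma1. In the IL-15SA+IL-21Fc library 89 (61.8%) held Cma1 UMIs only, 40 (27.8%) held both genes and 15 (10.4%) held S1pr5 only. In the IL-15SA library the numbers were 35 (77.8%), 6 (13.3%) and 4 (8.89%). They carried 372 and 102 Cma1 UMIs, against 83 and 16 S1pr5 UMIs. A sum of 2, just inside the threshold, was held by 72 and 29 cells, while 302 and 166 barcodes stood just outside it with a sum of 1. Higher sums were seen more with IL-15SA+IL-21Fc, where 47 of the 144 cells (32.6%) held at least 4 UMIs, against 5 of 45 (11.1%) with IL-15SA, and the highest sum was 9 in both libraries. Every filtered barcode with a UMI of both genes is among the chosen cells by the rule, so how often the genes met is a description of what the rule used. After thinning, an S1pr5 UMI was found in 15 of 192 filtered barcodes with a Cma1 UMI (7.81%) and in 66 of 6538 without one (1.01%) in the IL-15SA+IL-21Fc library. In the IL-15SA library the counts were 4 of 67 (5.97%) and 42 of 4113 (1.02%).

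Depth and quality were alike in the Cma1/S1pr5 cells and the comparison cells. Median UMIs per cell were 2163 and 2162 with IL-15SA+IL-21Fc, and 2567 and 2670 with IL-15SA, although a threshold on raw UMIs could have favoured deep barcodes. After thinning, the median number of genes was 572.5 and 584 with IL-15SA+IL-21Fc, and 585 and 589 with IL-15SA. Mitochondrial genes held 1.54% and 1.48% of UMIs with IL-15SA+IL-21Fc, and 1.30% and 1.31% with IL-15SA. The Cma1/S1pr5 cells summed to 362062 and 127876 UMIs, so that a gene with 0 UMIs there could still be at 8.29 and 23.5 CPM (UMIs of the gene per 1000000 UMIs). The IL-15SA values below therefore rest on few molecules, and at 20 CPM they rest on fewer than 3.

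UMIs were summed over the cells of a set and divided by the set's total to give CPM. At 20 CPM or more in either set in both libraries, 5211 genes were compared. A gene under 20 CPM in either set entered only through the other, so the filter fixed its direction. After adding 1 CPM to both values, 178 of them (3.42%) were 1.5-fold or more higher in the Cma1/S1pr5 cells than in the comparison cells in both libraries, and 228 (4.38%) were lower by that much in both. Within 1 library the counts were 383 higher (7.35%) and 677 lower with IL-15SA+IL-21Fc, and 713 higher (13.7%) and 1083 lower (20.8%) with IL-15SA. More genes passed in the library with fewer cells, where single UMIs move a value most. These shares are the background for every count of list genes below, and because the same cells chose the set and gave the values, nothing is read from the counts beyond a description.

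**Figure D2:**
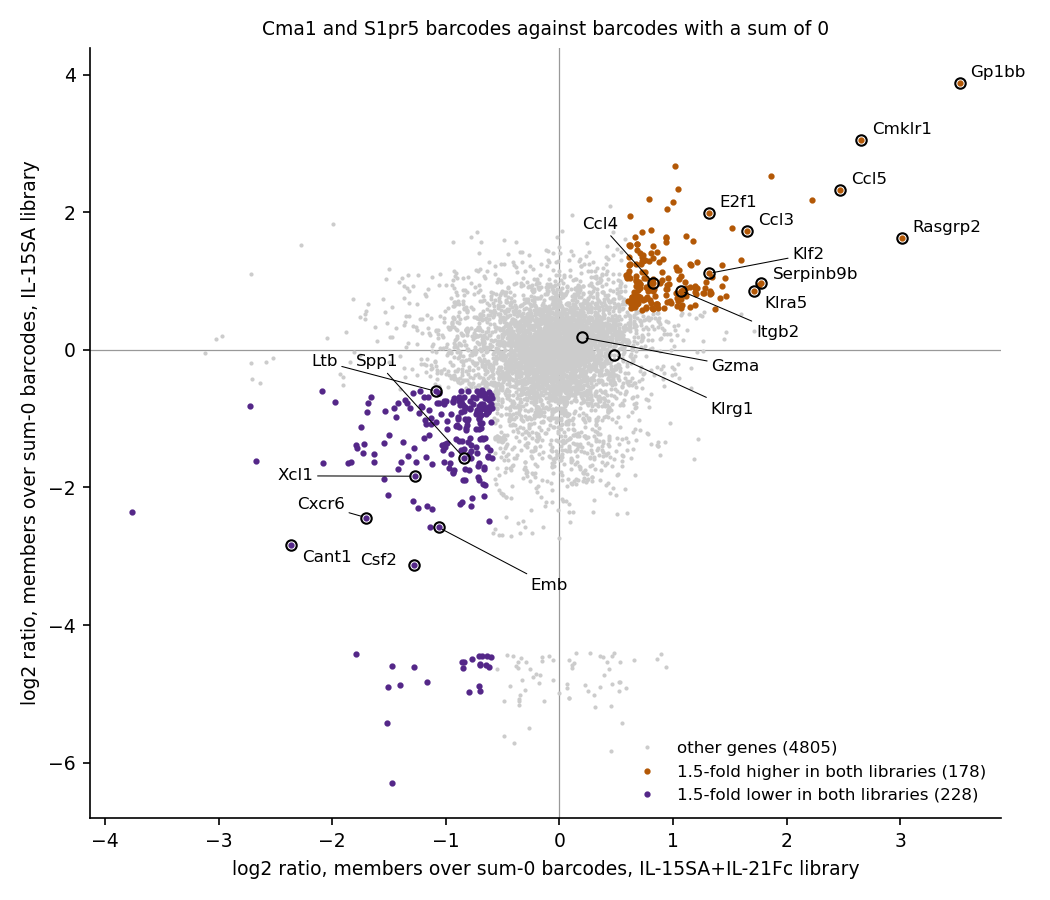
Log2 ratio of members over sum-0 barcodes, with 1 CPM added, in the IL-15SA+IL-21Fc library (x axis) and the IL-15SA library (y axis), 1 point per gene for 5211 genes. The 178 genes at least 1.5-fold higher in both libraries are orange and the 228 lower in both are purple, with named genes circled: Ccl5, Klf2 and Rasgrp2 lie at the upper right, Xcl1 and Cxcr6 at the lower left, Gzma and Klrg1 near 0 on at least 1 axis, and the separate band at the bottom holds genes with 0 UMIs in the IL-15SA members.

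Ccl5 was the most abundant of the 178 genes higher in both libraries. It stood at 42857 CPM in the Cma1/S1pr5 cells and 7725 CPM in the comparison cells of the IL-15SA+IL-21Fc library, a ratio of 5.55 (95% interval 5.46 to 5.64). For IL-15SA the levels were 19636 and 3944 CPM (ratio 4.98, 4.78 to 5.18). A Ccl5 UMI was found in 144 of 144 and 44 of 45 Cma1/S1pr5 cells, against 6134 of 6284 and 3620 of 3969 comparison cells. After thinning, these shares were 97.2% and 91.1%, against 87.9% and 69.2% in the comparison cells, and 72.9% and 55.3% in barcodes over the stroma limit and without Ncr1. Detection of Ccl5 was thus widespread in barcodes of every kind, and the cells differed in level.

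The level of Ccl5 varied widely from cell to cell. Per 10000 UMIs of a cell, the Cma1/S1pr5 cells of the IL-15SA+IL-21Fc library had a lowest value of 1.29 Ccl5 UMIs, a median of 489.1 and a highest value of 1914. Their middle 50% lay between 176.4 and 728.3, and the median of the comparison cells was 34.3. With IL-15SA the lowest value was 0, the median 125.3 and the highest 970.5, against a median of 13.5 in the comparison cells. The quartiles of the Cma1/S1pr5 cells there were 23.0 and 403.6. Cells of both sets overlapped, and comparison cells reached 1678 and 1069.

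Within the Cma1/S1pr5 cells, Ccl5 was higher in cells with more Cma1 and S1pr5 UMIs. At sums of 0, 1, 2, 3 and at least 4, Ccl5 was at 7725, 17380, 32571, 42012 and 59390 CPM in the IL-15SA+IL-21Fc library. In the IL-15SA library it was at 3944, 8222, 15927, 17255 and 44995 CPM. The last of these values rests on 5 cells. Ccl5 was highest in cells with both genes, at 56366 CPM with IL-15SA+IL-21Fc, while those with Cma1 only were at 40569 CPM and those with S1pr5 only at 24045 CPM. With IL-15SA the same subsets were at 38127, 19009 and 1763 CPM, and the last, 4 cells, lay below the comparison cells.

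Other CC chemokine genes were higher as well. Ccl3, which encodes a chemokine for monocytes and other leukocytes, was at 1011 CPM in the Cma1/S1pr5 cells and 321 CPM in the comparison cells with IL-15SA+IL-21Fc (ratio 3.15, 2.83 to 3.51). With IL-15SA, Ccl3 was at 712 and 215 CPM (ratio 3.31, 2.66 to 4.08), and 94 of 144 and 25 of 45 Cma1/S1pr5 cells had a UMI. Its close relative Ccl4 was at 5333 and 3012 CPM with IL-15SA+IL-21Fc (ratio 1.77, 1.69 to 1.85) and at 4880 and 2483 CPM with IL-15SA (1.96, 1.81 to 2.13). Ccl9, a further macrophage-attracting chemokine of the mouse, was low, at 41.4 and 10.7 CPM with IL-15SA+IL-21Fc and 31.3 and 4.59 CPM with IL-15SA. These 4 CC chemokine genes were all higher in the Cma1/S1pr5 cells of both libraries. Only Ccl3 and Ccl4 were free to go either way by the filter without being given as markers. Ccl5 was given as a marker of these cells. Ccl9 was under 20 CPM in the comparison cells, so it was compared only through its level in the Cma1/S1pr5 cells.

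Some cytokine and chemokine genes of other families were lower in both libraries, while Ifng was not. Xcl1, which encodes a chemokine for cross-presenting dendritic cells, was at 621 CPM in the Cma1/S1pr5 cells and 1500 CPM in the comparison cells with IL-15SA+IL-21Fc (ratio 0.414, 0.362 to 0.472). With IL-15SA, Xcl1 was at 266 and 952 CPM (ratio 0.279, 0.193 to 0.390). Ltb, which encodes lymphotoxin beta, was at 445 and 944 CPM with IL-15SA+IL-21Fc and at 368 and 559 CPM with IL-15SA. Csf2, the gene of the growth factor GM-CSF, was at 33.1 and 81.9 CPM with IL-15SA+IL-21Fc and at 7.82 and 76.0 CPM with IL-15SA, the 7.82 being 1 UMI. Ifng, the gene of interferon gamma, was at 392 and 297 CPM with IL-15SA+IL-21Fc (ratio 1.32, 1.11 to 1.56) and at 289 and 297 CPM with IL-15SA (0.973, 0.684 to 1.34). Of the 11 compared genes of the chemokine and cytokine list, 4 were higher in both libraries, the CC chemokine genes above with the limits given there. Another 4 were lower in both, the fourth being Lta, the gene of lymphotoxin alpha, with 4 and 1 UMIs. Ifng, Tnf and Tgfb1 passed in neither direction in both, and the median log2 ratio of the list was 0.39 with IL-15SA+IL-21Fc and -0.36 with IL-15SA. The medians of all 5211 genes were -0.05 and -0.03.

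**Figure D3:**
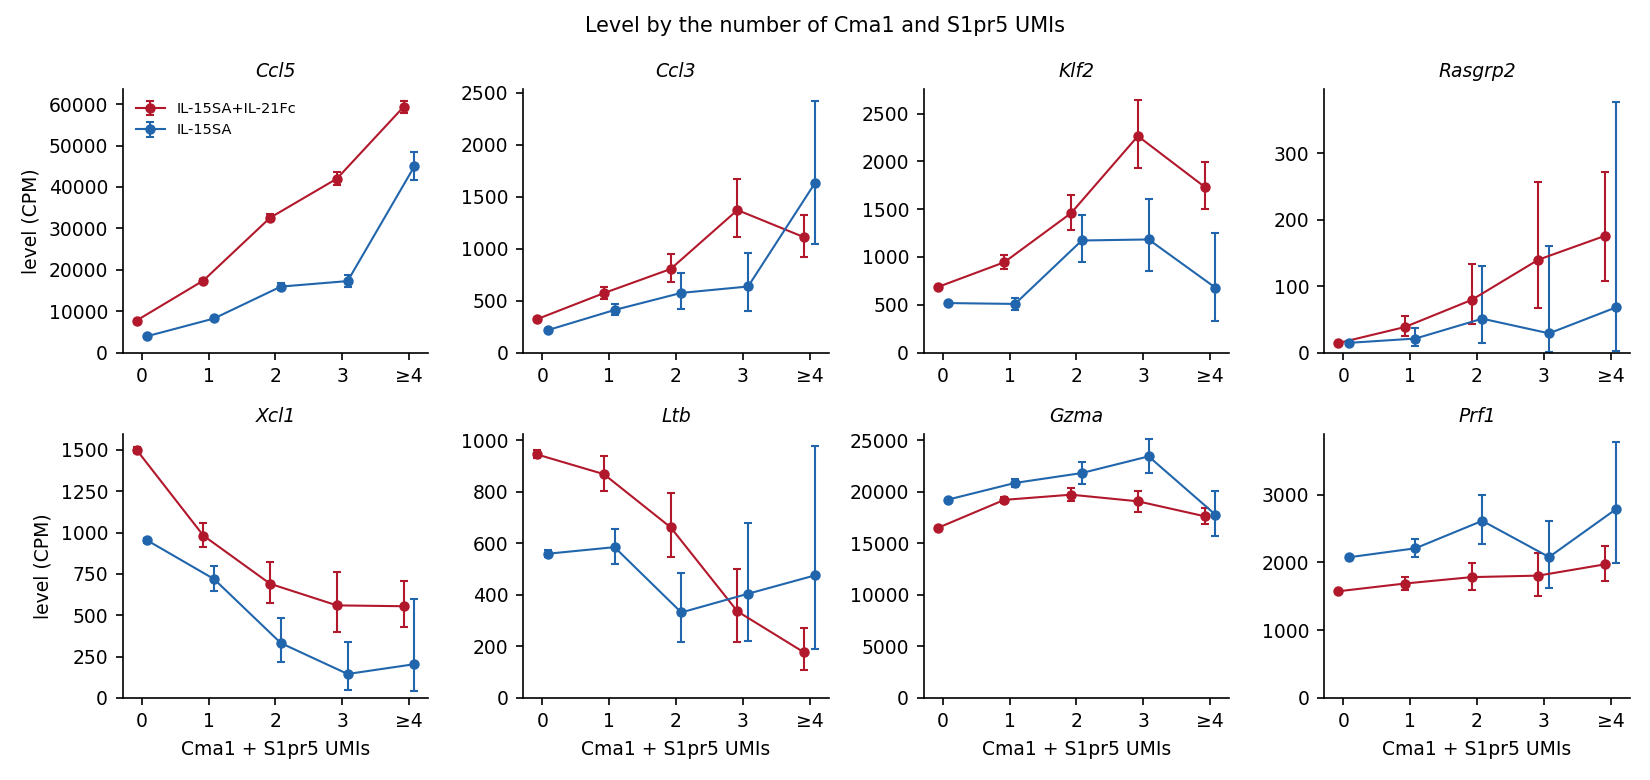
Level in CPM (y axis) against the number of Cma1 and S1pr5 UMIs per barcode (x axis; members have 2 or more) for 8 genes in the IL-15SA+IL-21Fc library (red) and the IL-15SA library (blue), with exact Poisson 95% intervals. At sums of at least 4, Ccl5 is at 59390 and 44995 CPM and Xcl1 at 554 and 204 CPM, while Gzma lies between 16477 and 23430 CPM at every sum.

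The transcription factor gene Klf2, which in lymphocytes controls genes of homing and egress and keeps cells quiescent, was higher in the Cma1/S1pr5 cells. It was at 1704 and 684 CPM with IL-15SA+IL-21Fc (ratio 2.49, 2.29 to 2.70) and at 1118 and 517 CPM with IL-15SA (2.16, 1.82 to 2.55). In the IL-15SA library 1 cell gave 18.9% of the Klf2 UMIs, and the level without it was 922 CPM. Its relative Klf3 was at 63.5 and 38.4 CPM with IL-15SA+IL-21Fc and at 54.7 and 29.0 CPM with IL-15SA. Rasgrp2, which encodes the exchange factor CalDAG-GEFI that activates RAP1 in integrin adhesion, was at 121.5 and 14.2 CPM with IL-15SA+IL-21Fc (ratio 8.59, 6.06 to 11.9, from 44 UMIs). With IL-15SA, Rasgrp2 was at 46.9 and 14.5 CPM (3.23, 1.17 to 7.17, from 6 UMIs). Unlike Klf2 and Klf3, Rasgrp2 was under 20 CPM in the comparison cells. It was compared only through its level in the Cma1/S1pr5 cells, so the filter fixed its direction.

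Lists of integrin and adhesion genes and of homing and egress genes held genes on both sides. Itgb2, the beta chain of LFA-1 and of other leukocyte integrins, was at 530 and 252 CPM with IL-15SA+IL-21Fc (ratio 2.10, 1.81 to 2.43) and at 477 and 263 CPM with IL-15SA (1.82, 1.39 to 2.34). Icam2, which encodes a ligand of LFA-1, was at 71.8 and 31.3 CPM with IL-15SA+IL-21Fc and at 78.2 and 25.5 CPM with IL-15SA. Spn, the gene of CD43, a glycoprotein of late NK maturation, was at 119 and 74.1 CPM with IL-15SA+IL-21Fc and at 133 and 82.4 CPM with IL-15SA. The list of 11 compared integrin and adhesion genes held 2 higher, Itgb2 and Spn, and 1 lower, Itga1, in both libraries, with medians of -0.10 and 0.31. With IL-15SA+IL-21Fc, 5 of the 11 lay above 0, and with IL-15SA 10 did. That of 9 homing and egress genes held 2 higher, the transcription factor genes Klf2 and Klf3, and 2 lower, with medians of -0.26 and 0.03. No receptor gene of this list was higher in both libraries. The lower ones were the chemokine receptor genes Cxcr6, at 16.6 and 56.3 CPM with IL-15SA+IL-21Fc and 7.82 and 46.8 CPM with IL-15SA, and Cxcr3, at 35.9 and 56.3 CPM and at 15.6 and 43.2 CPM. In the Cma1/S1pr5 cells with IL-15SA both lay below the 23.5 CPM that 0 UMIs would allow.

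Gp1bb and Cmklr1 had high ratios on few molecules. Both were under 20 CPM in the comparison cells and were compared only through their level in the Cma1/S1pr5 cells. Their direction was thus fixed by the filter, and they were named for having the highest ratios. Gp1bb, a subunit gene of the platelet von Willebrand factor receptor, was at 30.4 and 1.73 CPM with IL-15SA+IL-21Fc, from 11 UMIs in 9 cells, and at 39.1 and 1.72 CPM with IL-15SA, from 5 UMIs in 3 cells. Its ratios were 17.6 (7.84 to 36.8) and 22.7 (6.69 to 61.8). Cmklr1, the gene of the chemerin receptor, which NK cells and macrophages carry, was at 22.1 and 2.66 CPM with IL-15SA+IL-21Fc and at 39.1 and 3.86 CPM with IL-15SA, from 8 and 5 UMIs. Its ratios were 8.32 (3.36 to 18.0) and 10.1 (3.15 to 25.4). Both genes were thus found in a small minority of the Cma1/S1pr5 cells and were rarer still in the comparison cells. Sytl3, of the synaptotagmin-like family that links vesicles to RAB27, was found in 41 of 144 and 13 of 45 cells, at 146 and 53.7 CPM with IL-15SA+IL-21Fc and 125 and 52.7 CPM with IL-15SA.

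The label of mature NK cells was checked against lists of maturation genes. Of 14 compared genes of the NK maturation list, 4 were higher in both libraries (Ccl5, Klf2, Zeb2 and Spn) and 0 lower, with median log2 ratios of 0.21 and 0.22. Of the 4, Ccl5 was given with the label and is no check of it. Zeb2, under 20 CPM in the comparison cells, was compared only through its level in the Cma1/S1pr5 cells. Zeb2, a transcription factor of terminal NK maturation, was at 33.1 and 18.8 CPM with IL-15SA+IL-21Fc and at 70.4 and 14.6 CPM with IL-15SA, where 6 of its 9 UMIs came from 1 cell and the level without that cell was 23.7 CPM. Klrg1, a receptor gene of late NK maturation, was at 1939 and 1387 CPM with IL-15SA+IL-21Fc (ratio 1.40, 1.29 to 1.51) but at 1345 and 1420 CPM with IL-15SA (0.947, 0.810 to 1.10). Tbx21, the gene of T-bet, on which NK maturation and S1pr5 depend, was at 296 and 254 CPM with IL-15SA+IL-21Fc and at 196 and 215 CPM with IL-15SA, with intervals that included a ratio of 1 in both. Cx3cr1, a chemokine receptor gene of mature NK cells, had 6 and 1 UMIs in these cells. Itgam, which encodes CD11b and defines mature mouse NK cells, and Irf8 had 0 UMIs in them. Itgam had 14 UMIs over all barcodes of both libraries, so it cannot serve as a check in these files.

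Genes of the immature end gave a clearer split. Of 9 compared genes of the NK immaturity list, 0 were higher and 4 were lower in both libraries, with median log2 ratios of -0.85 and -0.60. The 4 were Xcl1, Ltb, Emb and Cd28. Emb, an adhesion protein gene, was at 88.4 and 186 CPM with IL-15SA+IL-21Fc and at 23.5 and 145 CPM with IL-15SA. The 23.5 CPM equals the level that 0 UMIs would allow in those cells. Cd28, the gene of the costimulatory receptor, was at 102 and 158 CPM with IL-15SA+IL-21Fc and at 93.8 and 154 CPM with IL-15SA. Cd27, whose loss marks the last stage of mouse NK maturation, was at 105 and 190 CPM with IL-15SA+IL-21Fc (ratio 0.551, 0.389 to 0.758) and at 117 and 143 CPM with IL-15SA (0.821, 0.458 to 1.36). Cd7, of the immunoglobulin superfamily, and Thy1, a surface glycoprotein gene, passed 1.5-fold in the IL-15SA+IL-21Fc library only, at 588 and 1019 CPM and at 434 and 821 CPM there. The list summed to 2950 and 5534 CPM with IL-15SA+IL-21Fc and to 2557 and 4138 CPM with IL-15SA.

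With IL-15SA+IL-21Fc the immaturity sum was lower at each step of the Cma1 and S1pr5 count, at 5534, 4411, 3591, 2740 and 2085 CPM for sums of 0, 1, 2, 3 and at least 4. With IL-15SA it was at 4138, 3334, 2115, 3261 and 3258 CPM, with no such order beyond a sum of 2. Ltb showed the same difference between libraries. It was at 944, 868, 662, 336 and 176 CPM over these sums with IL-15SA+IL-21Fc, and at 559, 585, 331, 404 and 475 CPM with IL-15SA.

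With IL-15SA+IL-21Fc, Xcl1 was higher in the subset with S1pr5 only than in the cells with Cma1, and this was not so with IL-15SA. It was at 462 CPM with IL-15SA+IL-21Fc in cells with Cma1 only (95% interval 381 to 556), 712 CPM in cells with both genes and 1603 CPM in the 15 cells with S1pr5 only (1194 to 2108), which is close to the 1500 CPM of the comparison cells. Ltb was at 425, 385 and 754 CPM in the same subsets. Rasgrp2 was at 110, 187 and 31.4 CPM, the last being 1 UMI. The intervals of the S1pr5-only cells were wide, at 483 to 1122 CPM for Ltb and 0.796 to 175 CPM for Rasgrp2. In the IL-15SA library the S1pr5-only subset held 4 cells, with Xcl1 at 203 CPM (42.0 to 595), below the 952 CPM of the comparison cells, and Ltb at 543 CPM (234 to 1069).

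The label names mature NK cells. In these files Ccl5, Klf2 and Spn lay on the side that such cells are known for, and Ccl5 was given with the label. So did 9 of 9 compared immaturity genes with IL-15SA+IL-21Fc and 8 with IL-15SA, though only 4 passed 1.5-fold in both. Zeb2 lay there too but was compared only because of its level in the Cma1/S1pr5 cells. Klrg1 with IL-15SA, Tbx21, Ly6c2 and most Ly49 genes did not lie on that side. The list of maturation transcription factors had medians on both sides. The homing and egress list held Klf2 and Klf3 higher but 2 receptor genes lower. Ly6c2, a Ly6 surface protein gene of late stages, was at 961 and 1323 CPM with IL-15SA+IL-21Fc and at 1220 and 1153 CPM with IL-15SA. Of 4 compared Ly49 receptor genes, which encode sensors of MHC class I, 1 was higher in both libraries and 0 lower. It was Klra5, at 359 and 109 CPM with IL-15SA+IL-21Fc (ratio 3.30, 2.74 to 3.94) and at 258 and 143 CPM with IL-15SA (1.81, 1.24 to 2.55). Klra3 was at 387 and 426 CPM with IL-15SA+IL-21Fc and at 313 and 377 CPM with IL-15SA. Ly49 genes are near-identical neighbours, so reads shared among them leave each value uncertain.

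Lymphoid cells of the ILC1 type also carry NKp46 and pass the sort. Of 6 compared ILC1 marker genes, 0 were higher and 3 were lower in both libraries (Cxcr6, Itga1 and Tmem176b), with medians of -0.60 and -1.66. Tmem176b, a membrane protein gene, was at 63.5 and 122 CPM with IL-15SA+IL-21Fc and at 62.6 and 106 CPM with IL-15SA. Cxcr6 and Itga1 rested on 6 and 7 UMIs with IL-15SA+IL-21Fc and on 1 and 2 with IL-15SA. Genes of NK identity were similar in both sets, with 0 of 14 higher and 0 lower in both libraries and medians of 0.06 and -0.07. Ncr1, which the rule requires, was at 1837 and 1801 CPM with IL-15SA+IL-21Fc and at 1595 and 1643 CPM with IL-15SA, and Eomes, a transcription factor of NK cells, at 130 and 119 CPM and at 109 and 117 CPM. The adaptor gene Tyrobp was lower, at 2867 and 3985 CPM with IL-15SA+IL-21Fc (ratio 0.719, 0.676 to 0.765) and at 3081 and 3561 CPM with IL-15SA (0.865, 0.782 to 0.956).

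Lists of other cell types were mostly no higher in the Cma1/S1pr5 cells than in the comparison cells. Since Cma1 is a mast cell gene, the mast cell and basophil list was read first. It gave 9 UMIs in the Cma1/S1pr5 cells with IL-15SA+IL-21Fc, 24.9 CPM against 22.1 CPM in the comparison cells, and 0 UMIs with IL-15SA, against 24.6 CPM. Mcpt4, Tpsb2, Tpsab1, Fcer1a, Ms4a2, Gata2, Il4 and Cyp11a1 were at 0 in the Cma1/S1pr5 cells of both libraries. T cell genes summed to 1375 and 1756 CPM with IL-15SA+IL-21Fc and to 1181 and 1616 CPM with IL-15SA, while Cd3e, Cd4, Cd8a, Cd8b1 and Cd5 were at 0. Monocyte and macrophage genes summed to 146 and 203 CPM with IL-15SA+IL-21Fc and to 102 and 153 CPM with IL-15SA, dendritic and B cell genes to 66.3 and 144 CPM and to 15.6 and 81.2 CPM, and neutrophil and red cell genes to 0 in the Cma1/S1pr5 cells. Tumour and stroma genes, part of which the rule limits, summed to 1025 and 1154 CPM with IL-15SA+IL-21Fc and to 1009 and 1272 CPM with IL-15SA. The list of innate lymphoid cells of type 2 or 3 was higher with IL-15SA+IL-21Fc, at 88.4 and 59.0 CPM from 32 UMIs, and not with IL-15SA, at 54.7 and 58.9 CPM from 7 UMIs, while Il17rb and Il22 were at 0 in the Cma1/S1pr5 cells of both libraries. Its 1 compared gene was Gata3, a transcription factor gene, at 58.0 and 39.7 CPM with IL-15SA+IL-21Fc and at 31.3 and 39.1 CPM with IL-15SA. The part of such RNA in the results was not tested.

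Cytotoxic genes were nearly level. Gzma, the gene of granzyme A, was at 18928 and 16477 CPM with IL-15SA+IL-21Fc (ratio 1.15, 1.12 to 1.18) and at 21787 and 19239 CPM with IL-15SA (1.13, 1.09 to 1.18). Prf1, the gene of the pore-forming protein perforin, was at 1845 and 1572 CPM with IL-15SA+IL-21Fc (1.17, 1.09 to 1.27) and at 2487 and 2074 CPM with IL-15SA (1.20, 1.07 to 1.34). Gzmb, the gene of granzyme B, was at 5474 and 6060 CPM with IL-15SA+IL-21Fc and at 8062 and 7729 CPM with IL-15SA. Of 18 compared genes of the cytotoxic list 0 were higher and 0 lower in both libraries, with medians of -0.03 and -0.12. Ctsw, a cathepsin gene of cytotoxic lymphocytes, was lower without passing 1.5-fold in both, at 715 and 1136 CPM with IL-15SA+IL-21Fc and at 704 and 967 CPM with IL-15SA. The intracellular inhibitor gene Serpinb9b was at 928 and 271 CPM with IL-15SA+IL-21Fc and at 579 and 295 CPM with IL-15SA.

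**Figure D4:**
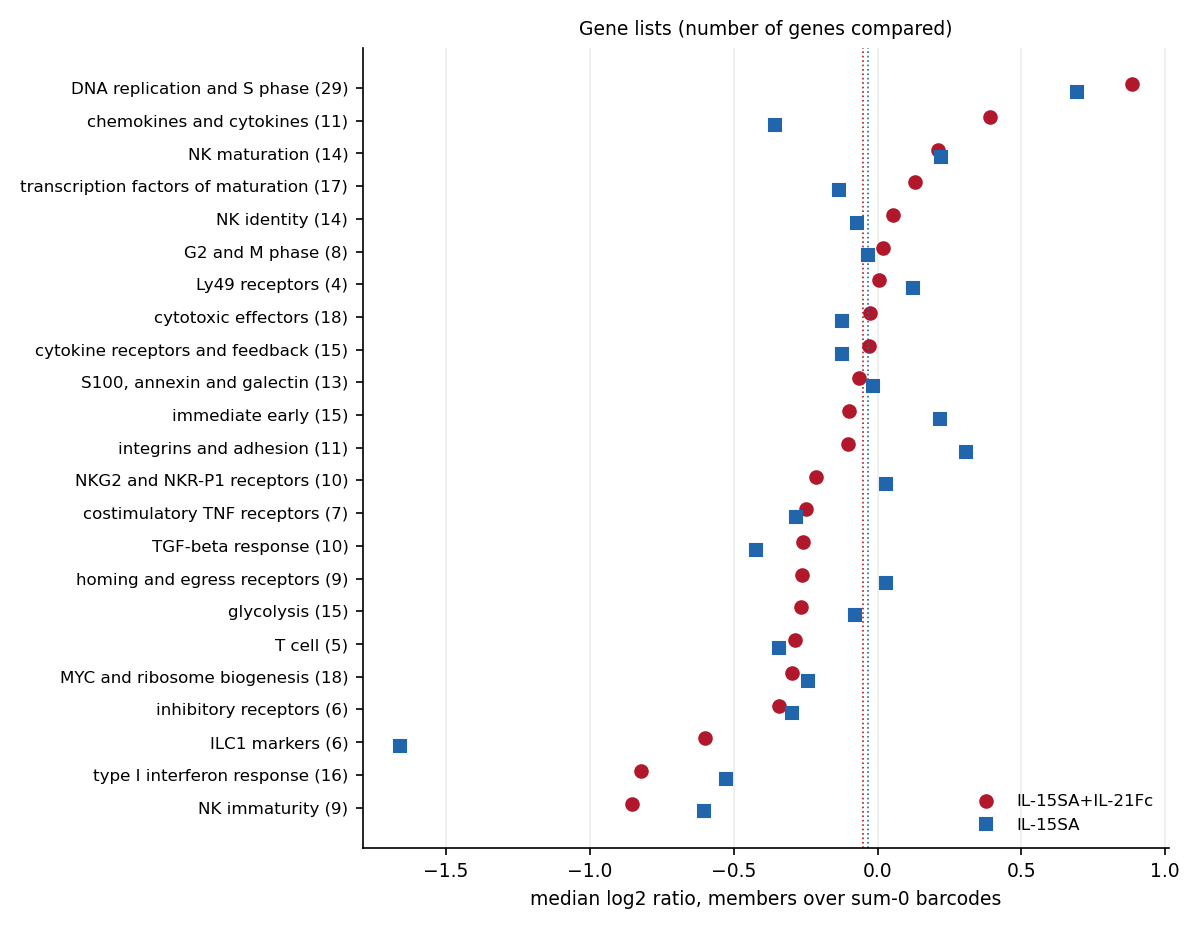
Median log2 ratio of members over sum-0 barcodes (x axis) of each gene list (y axis, number of genes compared in brackets) in the IL-15SA+IL-21Fc library (red circles) and the IL-15SA library (blue squares). Dotted lines mark the medians of all compared genes, -0.05 and -0.03, and no error is drawn because genes are not replicates: the DNA replication list lies at 0.88 and 0.69 and the NK immaturity list at -0.85 and -0.60.

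Genes of DNA replication were higher in the Cma1/S1pr5 cells although the rule had removed barcodes with at least 2 UMIs of 4 cycle genes. This list and a list of G2 and M phase genes were drawn up after Cdc45 and E2f1 had appeared among the highest ratios. Of 29 compared replication genes, 14 were higher and 0 lower in both libraries, with median log2 ratios of 0.88 and 0.69, and 28 and 25 of the 29 lay above 0. These counts and medians are partly set by the filter. Genes under 20 CPM in the comparison cells, such as E2f1, were compared only through their level in the Cma1/S1pr5 cells. Mcm3 and Mcm5, subunits of the replicative helicase, were at 135 and 62.2 CPM and at 111 and 44.7 CPM with IL-15SA+IL-21Fc. With IL-15SA they were at 172 and 86.7 CPM and at 117 and 58.8 CPM. Pcna, the sliding clamp gene, was at 293 and 142 CPM with IL-15SA+IL-21Fc (ratio 2.06, 1.68 to 2.51) and at 289 and 171 CPM with IL-15SA (1.69, 1.19 to 2.34). E2f1, a transcription factor of S phase entry, was at 35.9 and 13.8 CPM with IL-15SA+IL-21Fc, and its ratio with IL-15SA was 4.17 (1.77 to 8.39). All 40 listed genes, whether compared or not, summed to 2908 and 1647 CPM with IL-15SA+IL-21Fc and to 2760 and 2001 CPM with IL-15SA.

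Of 8 compared G2 and M phase genes 0 were higher and 0 lower in both libraries, with medians of 0.02 and -0.03. The whole list summed to 1143 and 947 CPM with IL-15SA+IL-21Fc and to 1017 and 962 CPM with IL-15SA. The rule limits UMIs of Mki67, Ccnb2 and Top2a in both sets of cells, so values of mitotic genes are partly set by it. A single UMI of the 4 cycle genes of the rule was held by 27.1% and 30.0% of the cells with IL-15SA+IL-21Fc and by 42.2% and 35.2% with IL-15SA. Among cells with none, 105 and 26 Cma1/S1pr5 cells against 4398 and 2573 comparison cells, 27 and 24 of the 29 replication genes lay above 0, with medians of 0.73 and 0.74. This restriction was chosen after seeing the data, and the 29 genes were those that had passed the same filter. The histone variant gene H2afz was at 867 and 378 CPM with IL-15SA+IL-21Fc and at 774 and 413 CPM with IL-15SA.

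Interferon-response genes were lower as a group, with an exception. Of 16 compared genes of the type I interferon list, 1 was higher and 4 were lower in both libraries, and the medians were -0.82 and -0.53. Below 0 lay 15 of the 16 with IL-15SA+IL-21Fc and 11 with IL-15SA. The ubiquitin-like antiviral gene Isg15 was at 55.2 and 108 CPM with IL-15SA+IL-21Fc and at 23.5 and 68.6 CPM with IL-15SA. Its 23.5 CPM equals the level that 0 UMIs would allow in those cells. The exonuclease gene Isg20 was at 33.1 and 95.5 CPM with IL-15SA+IL-21Fc and at 31.3 and 75.2 CPM with IL-15SA. The higher gene was Irf7, a transcription factor of the interferon response, at 144 and 81.4 CPM with IL-15SA+IL-21Fc (ratio 1.76, 1.31 to 2.33) and at 102 and 63.2 CPM with IL-15SA (1.61, 0.853 to 2.77).

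Receptors for activating cytokines lay on both sides. Il18rap, a chain of the IL-18 receptor, was at 110.5 and 68.4 CPM with IL-15SA+IL-21Fc (ratio 1.62, 1.15 to 2.22) and at 149 and 53.9 CPM with IL-15SA (2.76, 1.65 to 4.34). For the IL-12 receptor, the chain gene Il12rb2 was at 185 and 114 CPM with IL-15SA+IL-21Fc and at 164 and 102 CPM with IL-15SA, while Il12rb1 was at 11.1 and 41.9 CPM and at 15.6 and 50.4 CPM, from 4 and 2 UMIs. Of 15 compared genes of cytokine receptors and feedback, 2 were higher and 1 lower in both libraries, with medians of -0.03 and -0.12. Of 6 inhibitory receptor genes, 0 were higher and 2 lower. Those were Cd96, a receptor for nectin-like proteins, at 47.0 and 95.9 CPM with IL-15SA+IL-21Fc and 31.3 and 84.0 CPM with IL-15SA, and Ctla4, at 63.5 and 104 CPM and at 86.0 and 135 CPM.

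Genes of growth lay mostly somewhat lower. Of 18 compared genes of MYC targets and ribosome biogenesis, 0 were higher and 3 lower in both libraries, with medians of -0.30 and -0.24, and 17 and 13 of the 18 lay below 0. The 3 were Nolc1, Nop16 and the spermidine synthase gene Srm, which was at 35.9 and 73.3 CPM with IL-15SA+IL-21Fc and 31.3 and 85.1 CPM with IL-15SA. Of 15 glycolysis genes 0 were higher and 0 lower in both, with medians of -0.26 and -0.08. The S100, annexin and galectin list (13 genes) and the list of NKG2 and NKR-P1 receptors (10 genes) also held 0 higher and 0 lower in both, with medians of -0.06 and -0.02 and of -0.21 and 0.03. The TGF-beta response list (10 genes, medians of -0.26 and -0.42) held 2 higher, the tetraspanin gene Cd9 and the signal transducer gene Smad3, and 1 lower, Itga1, while the 7 costimulatory genes (-0.25 and -0.28) held 1 higher, Crtam. Cd9 was at 389 and 232 CPM with IL-15SA+IL-21Fc and at 352 and 170.2 CPM with IL-15SA. The 15 immediate early genes, which tissue dissociation can induce, likewise had 0 higher and 0 lower in both, with medians of -0.10 and 0.22.

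The question the libraries pose is how IL-21Fc added to IL-15SA bears on these cells. Within the Cma1/S1pr5 cells, 5976 genes were at 20 CPM or more in 1 library. Of these, 1272 (21.3%) were past 1.5-fold on the higher side and 1485 (24.8%) on the lower side with IL-15SA+IL-21Fc than with IL-15SA. The same counts in the comparison cells were 79 (1.48%) and 28 (0.526%) of 5324 genes. With 144 and 45 cells, most of the genes counted within the Cma1/S1pr5 cells rest on a handful of UMIs. The UMI numbers are given beside some of the genes with the fewest. The genes with the highest ratios at 50 CPM or more, such as Necap2 with 39 and 2 UMIs and Acaa2 with 27 and 1, and those with the lowest, such as Vrk2 with 2 and 11, show how few molecules stand behind them.

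Several abundant genes, picked as examples, had ratios on the same side in both sets of cells. At 100 CPM or more, 137 and 202 of 1673 genes still passed 1.5-fold on the higher and lower side in the Cma1/S1pr5 cells. Ccl5 was higher with IL-15SA+IL-21Fc by a ratio of 2.18 (95% interval 2.09 to 2.28) in the Cma1/S1pr5 cells and 1.96 in the comparison cells. The ratios were 1.42 (1.13 to 1.81) and 1.49 for Ccl3, 1.52 (1.27 to 1.84) and 1.32 for Klf2, and 2.34 (1.62 to 3.46) and 1.58 for Xcl1. Gzmb was lower with IL-15SA+IL-21Fc, at 0.679 (0.629 to 0.733) and 0.784, as was Prf1, at 0.742 (0.648 to 0.851) and 0.758. The glycolytic gene Ldha was at 0.629 (0.504 to 0.787) and 0.733, and the nucleolar gene Npm1 at 0.743 (0.636 to 0.869) and 0.759. The difference between the 2 sets of cells was not tested for any gene.

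Other genes differed between the libraries in the Cma1/S1pr5 cells and little or the other way in the comparison cells. Klrg1 had a ratio of 1.44 (1.22 to 1.71) in the Cma1/S1pr5 cells and 0.976 in the comparison cells. Serpinb9b had 1.60 (1.24 to 2.09) and 0.918. Gpx8, of the glutathione peroxidase family, had 1.46 and 0.826. Ifitm1, whose membrane protein is induced by interferon, was at 580 CPM with IL-15SA+IL-21Fc and 258 CPM with IL-15SA in the Cma1/S1pr5 cells (2.25, 1.55 to 3.35, from 210 and 33 UMIs), but at 365 and 916 CPM in the comparison cells (0.398). In the IL-15SA+IL-21Fc library 1 cell gave 30.5% of the Ifitm1 UMIs, and the level without it was 412 CPM. Gzmc, a granzyme gene whose near-identical neighbours share reads with it, was at 544 and 274 CPM in the Cma1/S1pr5 cells (1.99, 1.38 to 2.94, from 197 and 35 UMIs) and at 766 and 1188 CPM in the comparison cells (0.645). Single cells gave 20.8% and 20% of the Gzmc UMIs of the Cma1/S1pr5 cells, and the levels without them were 440 and 233 CPM. Thy1 had ratios of 0.528 (0.410 to 0.683) and 0.752, lower with IL-15SA+IL-21Fc in both sets.

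**Figure D5:**
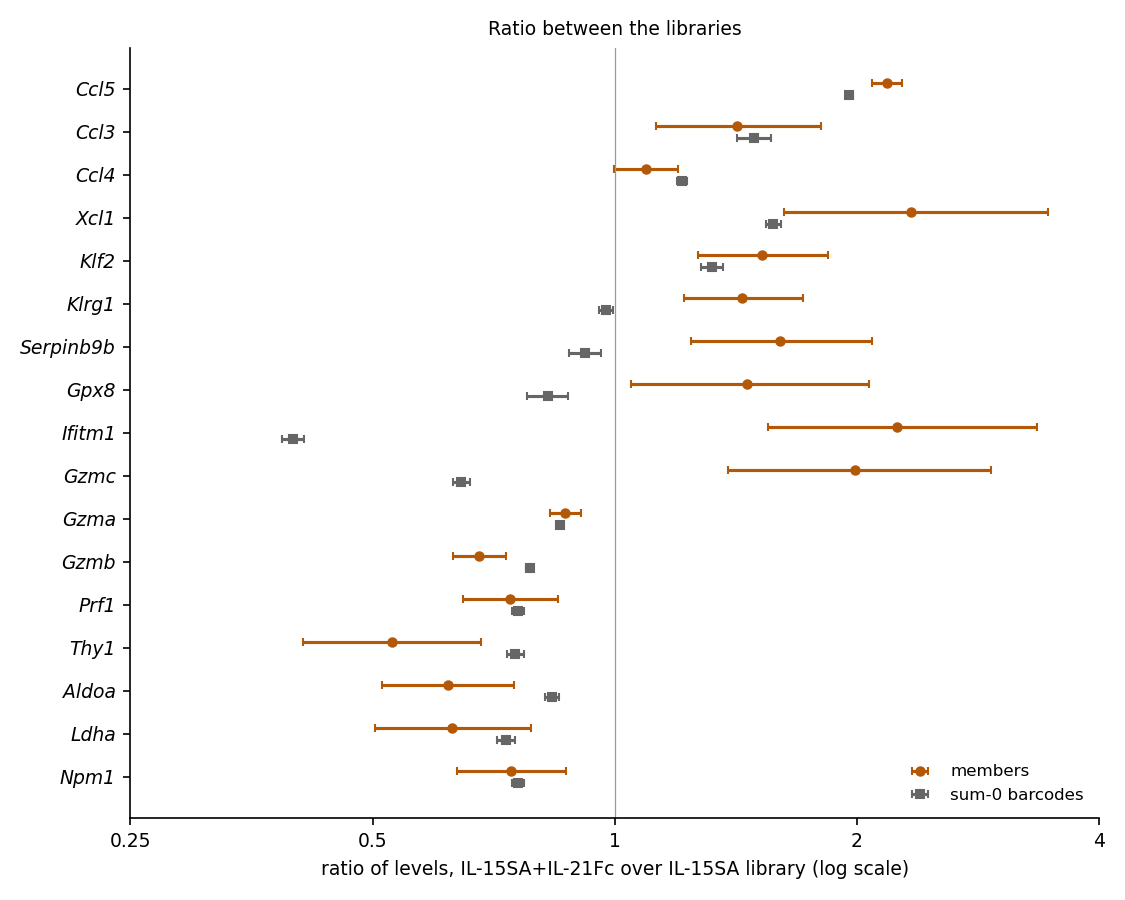
Ratio of levels, IL-15SA+IL-21Fc over IL-15SA library (x axis, log scale), of 17 genes (y axis) in members (orange circles) and sum-0 barcodes (grey squares), with exact conditional binomial 95% intervals that cover counting error only. The sets lie close for Ccl3, Gzma, Prf1 and Npm1 and far apart for Ifitm1, at 2.25 and 0.398, and Gzmc, at 1.99 and 0.645.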

How the data were processed

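The authors deposited whole-number UMI counts per gene and called barcode, not normalized, per the labels 1 library per treatment of pooled sorted cells (GEXSCOPE kit). Cutadapt, featureCounts, Seurat version 4, Scanpy and mm10 appear in the submitters' processing notes; the aligner is not given in the sources used here, nor are the annotation and cell calling. Of 53715 listed genes, 118 symbols shared by several IDs were resolved to the ID with most UMIs, and Cd244a was matched as Cd244 by ID. The cells and gene lists were chosen with earlier results of these data known, and the replication and G2 and M lists after seeing values.

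UMIs were summed per set and library. Genes at 20 CPM or more were called at 1.5-fold with 1 CPM added; ratios shown with intervals are without that addition. Intervals (95%) are exact Poisson for CPM, exact conditional binomial for ratios and Clopper-Pearson for shares. Genes named by rule were the 12 highest and 12 lowest by the ratio nearest to 0 over both libraries, the 8 highest and 8 lowest between libraries at 50 CPM or more, and genes of the lists; the text gives part of them, and 3 are not reported here. Spp1, Car2, Plac8, Ramp1, Hopx, Serpinb9b, Gpx8, H2afz, Plek, Nfkbiz, Icam1 and Fas are named outside that rule, chosen after their values were seen. No p-value was computed, since each group has 1 library. Scrublet's automatic threshold marked 0 and 2 barcodes, too few to have worked, so doublets were kept, and removing the 5% highest scores was an alternative. Level calculations were checked on simulated data, with ratios and calls only for genes at 100 CPM or more and changes larger than 1.5-fold or none. Calls near 20 CPM or near 1.5-fold were not checked that way. Python 3.11.15, numpy 2.4.6, scipy 1.17.1, pandas 2.3.3, scanpy 1.11.5 and matplotlib 3.10.9 were used.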

Additional observations from a re-analysis of the deposited data

Results flagged for a closer look

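Barcodes that the filters set aside also carried both genes. Among barcodes with Ncr1 and little stroma RNA but at least 2 UMIs of the cycle genes, 4.92% (176 of 3579; 95% interval 4.23 to 5.68) had at least 2 UMIs of Cma1 and S1pr5 with IL-15SA+IL-21Fc, and 2.17% (73 of 3370; 1.70 to 2.72) with IL-15SA, at median depths of 3411 and 4179.5 UMIs. After thinning, at least 1 UMI was found in 5.28% and 1.96% of them. Without thinning, more barcodes with a sum of at least 2 were thus over the cycle limit than the 144 and 45 that the rule kept, at greater depth. Thinned to 1000 UMIs, 38 and 15 barcodes over the limit had such a sum, against 56 and 15 that passed all filters. Over the stroma limit with IL-15SA+IL-21Fc the share was 0.454% (6 of 1323), and without Ncr1 under that limit it was 1.62% (13 of 803). They stand out as signal outside the cells compared, above 0 UMIs.

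Some genes lay on opposite sides of the 2 libraries or of the 2 sets of cells, and these differences were not tested. Log2 ratios of the Cma1/S1pr5 cells over the comparison cells, first with IL-15SA+IL-21Fc and then with IL-15SA, were 0.67 and -1.82 for Ifitm1, -1.99 and 1.82 for Ap1g2, an adaptor protein subunit gene, and -2.27 and 1.52 for Vrk2, a kinase gene. Ap1g2 rests on 2 and 10 UMIs and Vrk2 on 2 and 11. Log2 ratios of IL-15SA+IL-21Fc over IL-15SA, first in the Cma1/S1pr5 cells and then in the comparison cells, were 1.17 and -1.33 for Ifitm1 and 0.99 and -0.63 for Gzmc.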

How the results depend on the processing

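No paired analysis was possible because cells were pooled into 1 library per treatment, which also leaves no replicate to leave out. Of 178 genes higher and 228 lower in both libraries, requiring a sum of at least 3 gave 328 and 416, with shares of 1.07% and 0.383% and 2663 genes lower with IL-15SA+IL-21Fc than with IL-15SA; fewer cells enter by construction. A minimum of 5 CPM gave 446 and 710, with 3123 higher and 2799 lower between libraries, 50 CPM gave 57 and 67, with 433 and 570, and 100 CPM, chosen after seeing the data, gave 25 and 22, with 137 and 202. Fewer genes are compared by construction at a higher minimum (9086, 2752 and 1478 against 5211, and between libraries 10265, 3144 and 1673 against 5976), and a smaller share of them passed on each side in both comparisons. Without any cycle UMI 361 genes were lower, and the cause was not tested. As a share of all barcodes the cells made up 1.16% and 0.537%, and after thinning 0.832% and 0.359% at a sum of at least 2 and 3.83% and 2.61% at a sum of at least 1. With UMIs per cell standardised, 50 of 50 list medians changed little, though some small medians changed sign, and no spread was computed for lists. Of 48 single-gene values, 47 stayed within or near their counting interval. Ccl5 with IL-15SA went to a log2 ratio of 2.09, against 2.32. The number of UMIs in the IL-15SA cells, 127876, limits every ratio of genes under about 100 CPM there.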

Other observations

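Further genes differed between the Cma1/S1pr5 cells and the comparison cells in both libraries and belong to none of the lists. Spp1, the gene of the secreted phosphoprotein osteopontin, was at 1011 and 1811 CPM with IL-15SA+IL-21Fc and at 907 and 2694 CPM with IL-15SA. Car2, a carbonic anhydrase gene, was at 790 and 1471 CPM with IL-15SA+IL-21Fc and at 813 and 1609 CPM with IL-15SA. Both were thus lower in the Cma1/S1pr5 cells. Plac8, Ramp1, a coreceptor gene for the neuropeptide CGRP, and the homeodomain gene Hopx were lower as well, at 539 and 961, 77.3 and 209, and 77.3 and 155 CPM with IL-15SA+IL-21Fc, and at 579 and 1038, 46.9 and 158, and 62.6 and 140 CPM with IL-15SA.

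Examples on the higher side, chosen after their values were seen, were Icam1, Nfkbiz, Fas, Plek and Gpx8. Icam1, which encodes a ligand of LFA-1, was at 152 and 88.8 CPM with IL-15SA+IL-21Fc and at 149 and 79.7 CPM with IL-15SA. Nfkbiz, a regulator of NF-kB target genes, was at 191 and 107 CPM with IL-15SA+IL-21Fc and at 250 and 87.1 CPM with IL-15SA. The death receptor gene Fas was at 44.2 and 19.9 CPM with IL-15SA+IL-21Fc and at 54.7 and 16.7 CPM with IL-15SA. Being under 20 CPM in the comparison cells, Fas was compared only through its level in the Cma1/S1pr5 cells. Plek, the gene of pleckstrin, was at 301 and 172 CPM with IL-15SA+IL-21Fc and at 266 and 161 CPM with IL-15SA. Gpx8 was at 514 and 151 CPM with IL-15SA+IL-21Fc and at 352 and 183 CPM with IL-15SA.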
